A study of Mus musculus with 27 samples.

Results

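Matrix metalloproteinases (MMPs) and their inhibitor Timp2 were described in macrophages and neutrophils sorted from mouse mammary tumours. The 7 genes, Mmp8, Mmp9, Mmp12, Mmp13, Mmp14, Mmp19 and Timp2, were chosen by name, and all 7 were among the 9996 genes of the expression table. The table held 5 other genes of the same families, Mmp2, Mmp25, Mmp27, Timp1 and Timp3. The tumours arose in mice labelled K14cre;Cdh1F/F;Trp53F/F, in which Cre under the keratin 14 promoter acts on floxed Cdh1 and Trp53 in epithelial cells. Every group, the controls included, carried these alleles. No source used here gives the age of the mice.

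The mice had received control antibody, anti-CSF-1R antibody, cisplatin with control antibody (called cisplatin below) or cisplatin with anti-CSF-1R antibody (called the combination). CSF-1R is the receptor through which CSF-1 sustains macrophages, and cisplatin is a DNA-crosslinking drug. Neutrophils were represented by 4 control, 4 anti-CSF-1R, 3 cisplatin and 4 combination libraries. Macrophages were represented by 4 control, 2 anti-CSF-1R, 4 cisplatin and 2 combination libraries. Collection followed the last of 2 cisplatin injections by 1 day, whereas tumours without cisplatin were taken at 100 mm2, so cisplatin and the time of collection cannot be told apart in a comparison of cisplatin with control. The labels do not tie libraries to mice, so p-values measure the spread between these libraries, part of which may be technical. Levels are read counts scaled by each library's size factor, and 1 is the lowest value listed.

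MMPs are zinc-dependent endopeptidases that are made as inactive precursors and cleave collagens, elastin, other matrix proteins and many signalling proteins. Tissue inhibitors of metalloproteinases (TIMPs) bind their active sites. Neutrophils store Mmp8 and Mmp9 in granules that form while the cells mature in the bone marrow, so transcript and stored protein need not move together in a tissue neutrophil. Tumour macrophages are a known source of secreted MMPs, of the elastase Mmp12 and of the membrane-bound Mmp14.

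Mmp13, Mmp12 and Mmp8 lie together on chromosome 9, all on the plus strand, within 296 kb (GENCODE vM21, GRCm38). Mmp13 spans 7272514 to 7283331, Mmp12 spans 7344381 to 7369499 and Mmp8 spans 7558456 to 7568485. Mmp9 lies on chromosome 2 (164940780 to 164955850, plus strand) and Mmp14 on chromosome 14 (54431612 to 54445364, plus strand). Mmp19 lies on chromosome 10 (128790910 to 128800824, plus strand) and Timp2 on chromosome 11 (118301069 to 118355740, minus strand). The 250 bases before the RefSeq transcription start (GRCm38.p6) were at hand for 5 of the 7 genes. They were searched on both strands for the AP-1 motif TGANTCA, the binding sequence of Fos and Jun proteins, and for the TATA box TATAAA. These motifs did not overlap each other, and capitals mark the matches below. The windows of the 3 chromosome 9 genes are shown because Mmp13 and Mmp8 moved under treatment, and that of Timp2 because it is the inhibitor of the set. They are chr9:7272264-7272513 for Mmp13, chr9:7347124-7347373 for the downstream start of Mmp12, chr9:7558179-7558428 for Mmp8 and chr11:118355412-118355661, minus strand, for Timp2.
Mmp13: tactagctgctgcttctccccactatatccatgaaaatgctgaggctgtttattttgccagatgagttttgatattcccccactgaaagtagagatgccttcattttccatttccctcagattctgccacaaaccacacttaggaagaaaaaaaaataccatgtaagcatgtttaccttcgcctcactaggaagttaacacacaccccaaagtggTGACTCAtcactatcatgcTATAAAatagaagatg
Mmp12: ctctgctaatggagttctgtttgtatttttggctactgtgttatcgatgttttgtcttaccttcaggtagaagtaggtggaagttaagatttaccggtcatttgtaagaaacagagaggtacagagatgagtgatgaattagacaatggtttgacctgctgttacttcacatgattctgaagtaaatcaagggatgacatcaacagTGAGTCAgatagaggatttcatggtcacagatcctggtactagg
Mmp8: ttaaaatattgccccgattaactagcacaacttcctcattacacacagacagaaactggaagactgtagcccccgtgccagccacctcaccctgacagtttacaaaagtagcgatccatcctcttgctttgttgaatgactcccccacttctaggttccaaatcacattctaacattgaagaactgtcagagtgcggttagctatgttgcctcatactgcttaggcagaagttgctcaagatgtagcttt
Timp2: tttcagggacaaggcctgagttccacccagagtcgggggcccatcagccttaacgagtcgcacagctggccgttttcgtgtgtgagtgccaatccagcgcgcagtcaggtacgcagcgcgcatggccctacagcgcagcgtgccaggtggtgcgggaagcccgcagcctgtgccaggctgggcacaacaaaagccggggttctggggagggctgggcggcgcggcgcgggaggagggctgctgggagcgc
Mmp13 carried TGACTCA with its first base 35 bases before the start and TATAAA with its first base 16 bases before it. The downstream Mmp12 start had TGAGTCA 44 bases upstream. The upstream Mmp12 start, Mmp8, Mmp14 and Timp2 had neither motif in these windows. Of all 32851 RefSeq windows of this length, 6.75% held the AP-1 motif and 12.4% the TATA box. The Timp2 window was richest in G and C among the 6 windows, at 68.0% with 21 CpG sites, and the chromosome 9 windows lay between 39.6% and 44.8%, against a median of 52.4% over all windows. A match is a string of letters, and binding was not measured.

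Many values below 1000 had lost their decimal point in the table, and their place was restored from the value that 1 read has in each library and from the other libraries of the gene and group. Of the 189 values of these genes, 131 allowed a single place and 161 (85.2%) were kept, while 28 whose place had a probability under 0.95 were left out. Mmp13 lost 7 values, Mmp9 and Mmp12 lost 5 each, Mmp14 and Mmp19 lost 4 each, Mmp8 lost 3 and Timp2 none. Decoded reads ranged from 1298440 to 7496539 per macrophage library and from 998319 to 3282538 per neutrophil library. Neutrophil cisplatin replicate 2 and combination replicate 2 stood apart on the first principal component of the neutrophils, with scores of 38.8 and 67.5 against -36.7 to 19.3 in the others, of which control replicate 1 was the lowest. The first component of the macrophages had scores of 34.2 to 51.8 in the 4 libraries given anti-CSF-1R, alone or in the combination, and of -40.7 to 10.1 in the other libraries.

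By summed level, the sorted populations carried the markers of their labels. The summed level of 12 macrophage markers was 16042 to 35686 in macrophage libraries and 2254 to 5402 in neutrophil libraries. In controls the neutrophil sum was 18.8% of the macrophage sum, with single markers from 7.88% to 118%. The neutrophil mean was 13.7% of the macrophage mean for Mmp13, 24.9% for Timp2, 27.1% for Mmp12, 28.2% for Mmp14 and 76.0% for Mmp19. The part of macrophage transcripts in these neutrophil levels was not tested. The summed level of the 10 neutrophil markers in the table was 24609 to 102209 in neutrophil libraries and 174 to 1560 in macrophage libraries. Ly6g, Mpo and Elane were not analysed here. In bulk libraries, fewer cells of a type and less RNA per cell cannot be told apart.

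**Figure D1:**
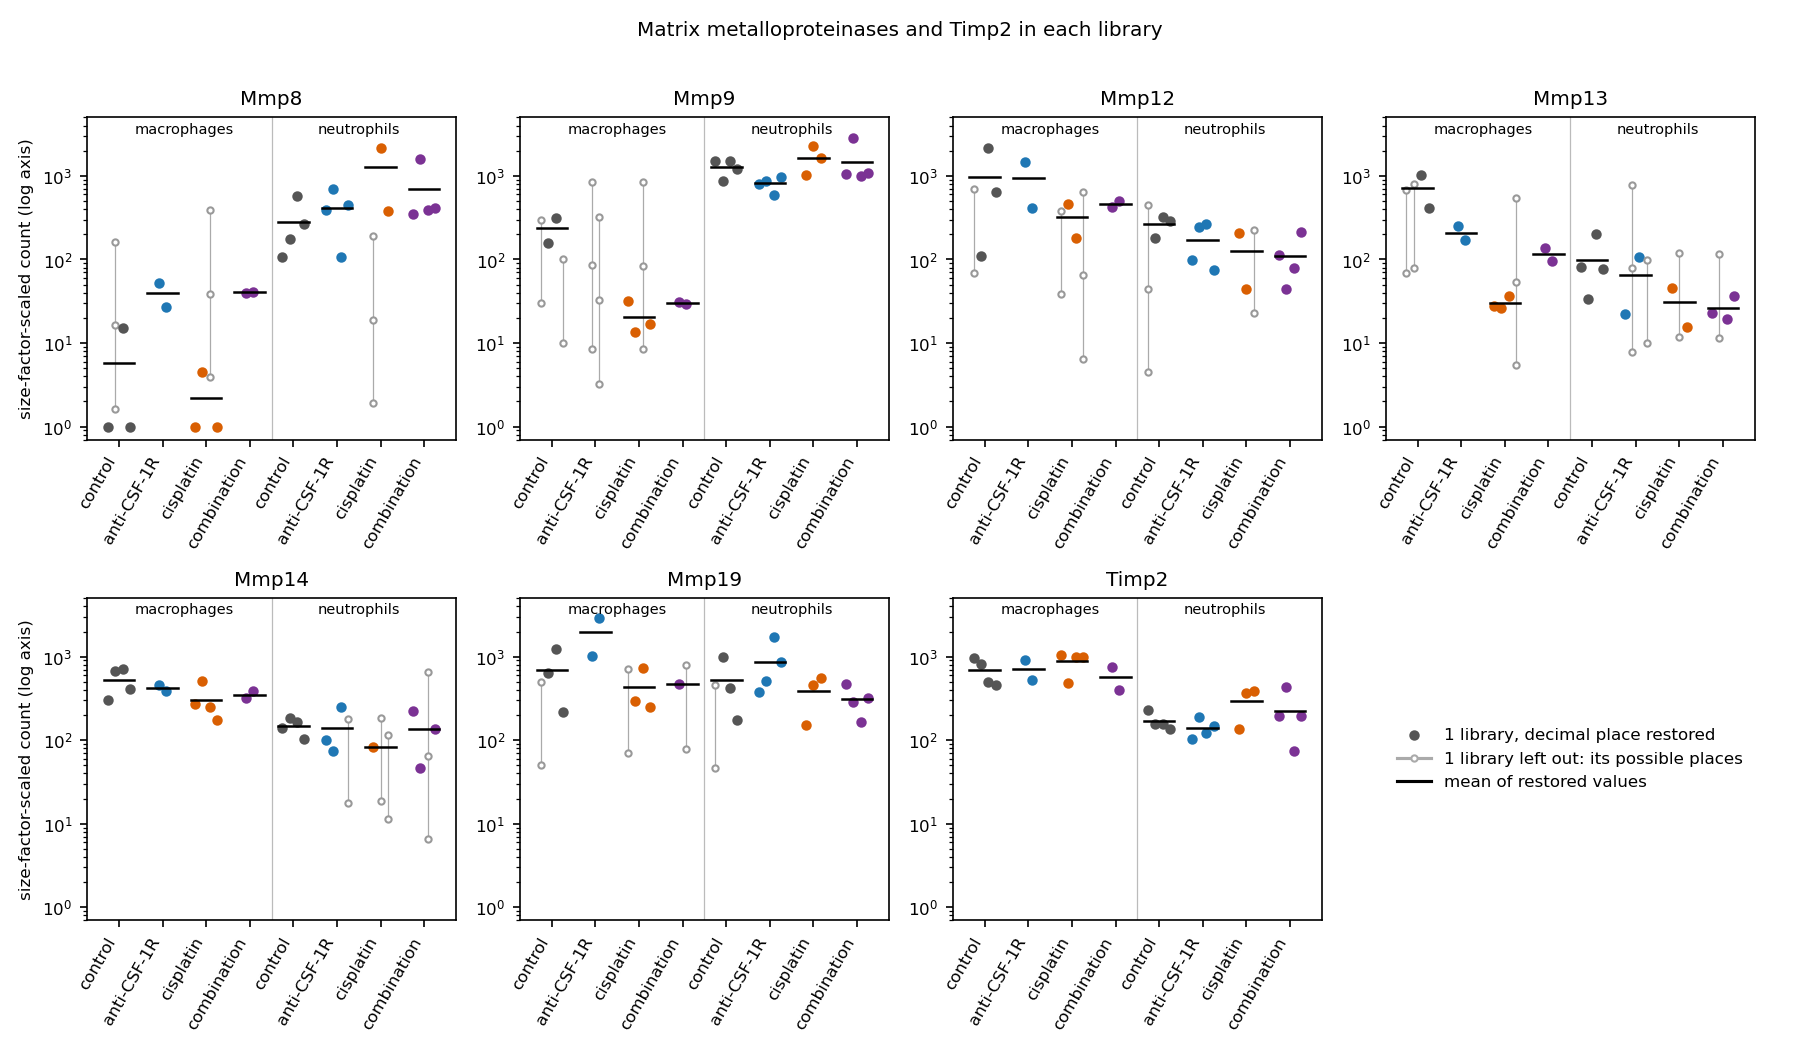
Level of each gene (size-factor-scaled count, log axis) in every library, with macrophages left of the grey line and neutrophils right of it. Filled points are restored values, open points joined by a line are the possible places of a value that was left out, and bars are means of the restored values. Mmp8 and Mmp9 lie higher in neutrophils, Timp2 higher in macrophages, and Mmp13 is lowest among macrophage groups under cisplatin.

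In control tumours the gene with the highest mean differed between the cell types. Levels of different genes were compared per kilobase of exon, taking all annotated exons of a gene merged. That length can exceed the length of a transcript, and the order of the genes depends on it. It was 7237 bases for Mmp12, 5960 for Mmp14 and 2673 for Mmp13. In control neutrophils Mmp9 had the highest mean, 360 ± 84.2 per kb (SD, n = 4), followed by Mmp19 at 150 ± 117 (n = 3) and Mmp8 at 116 ± 86.4 (n = 4). The ranges of Mmp9 and Mmp19 overlapped. Timp2, Mmp13, Mmp12 and Mmp14 followed at 43.6 ± 10.7, 36.8 ± 26.6, 36.3 ± 10.3 and 24.9 ± 5.92 per kb. In control macrophages Mmp13 had the highest mean, 268 ± 159 per kb (n = 2), with Mmp19 at 197 ± 144 (n = 3), Timp2 at 175 ± 63.7 (n = 4) and Mmp12 at 134 ± 147 (n = 3). These 4 ranges overlapped, so their order is not set by these libraries. Without division by length, Mmp12 had a higher mean than Mmp13 there, 970 ± 1066 (n = 3) against 717 ± 426 (n = 2). Mmp14 (88.1 ± 33.8 per kb, n = 4) and Mmp9 (66.5 ± 31.2, n = 2) were lower, and Mmp8 was at 2.36 ± 3.37 (n = 3). Under cisplatin the order in macrophages was Timp2 at 225 ± 66.4 per kb (n = 4), Mmp19 at 121 ± 75.6 (n = 3), Mmp14 at 50.6 ± 25.0 (n = 4) and Mmp12 at 44.1 ± 26.8 (n = 2). Mmp13 stood at 11.3 ± 1.99 per kb (n = 3) in that group, below these 4.

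**Figure D2:**
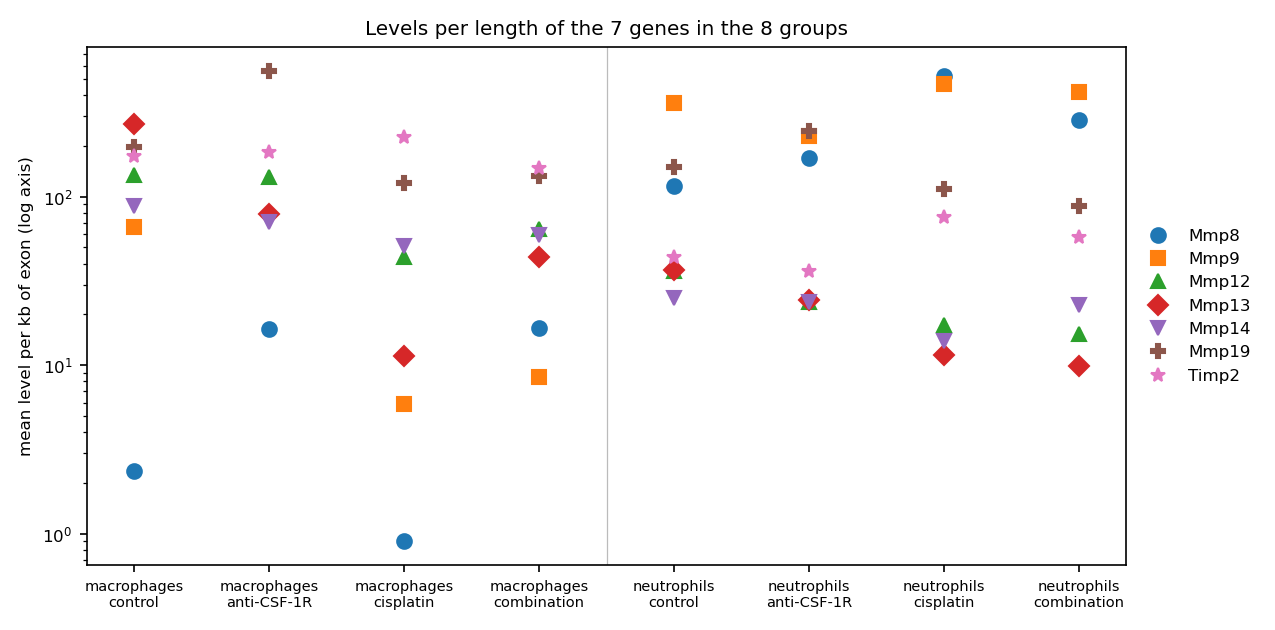
Mean restored level per kb of exon (all annotated exons merged, log axis) of each gene in the 8 groups, macrophages left of the grey line. The Mmp13 mean falls from 268 per kb in control macrophages to 11.3 under cisplatin, while Timp2 lies between 148 and 225 per kb in the 4 macrophage groups. Mmp9 has no point in anti-CSF-1R macrophages, where both values were left out.

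Mmp8, the neutrophil collagenase, was a neutrophil transcript in these tumours. In control neutrophils its level was 107, 176, 581 and 265. In control macrophages it was listed at 1 in replicates 1 and 4 and was 15.1 in replicate 3, with replicate 2 left out. A value listed at 1 was taken as 0 reads. No macrophage value reached the neutrophil range. The log2 difference, macrophages minus neutrophils, was -5.86 ± 0.74 (SE) with a limma adjusted p of 8.93e-07. Mmp8 passed the test under each of the other treatments as well, at -3.13 ± 0.84 under anti-CSF-1R (adjusted p = 0.00466), -8.34 ± 0.88 under cisplatin (6.31e-08) and -3.74 ± 0.84 in the combination (0.000961). Leaving out anti-CSF-1R macrophage replicate 2 moved the adjusted p in that group to 0.0683. Log2 values are of the level plus 1, so the size of these differences depends on the pseudocount where macrophages are at or near 1.

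Mmp9, gelatinase B, was also higher in neutrophils. Its level was 1499, 871, 1499 and 1221 in control neutrophils, and 157 and 313 in the 2 control macrophage libraries with a restored place. The groups did not overlap, and the log2 difference was -2.48 ± 0.41 (adjusted p = 3.82e-05). It was -6.27 ± 0.39 under cisplatin (2.77e-11) and -5.42 ± 0.41 in the combination (1.71e-09), and could not be fitted under anti-CSF-1R because both macrophage values were left out.

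Timp2, which inhibits MMPs and also takes part in the activation of pro-Mmp2 by Mmp14, was higher in macrophages under all 4 treatments. In controls its level was 963, 821, 494 and 455 in macrophages and 231, 155, 155 and 138 in neutrophils. The control groups did not overlap, with a log2 difference of +1.96 ± 0.40 (adjusted p = 0.000282). The differences were +2.33 ± 0.49 under anti-CSF-1R (0.00053), +1.65 ± 0.43 under cisplatin (0.0024) and +1.56 ± 0.49 in the combination (0.0119). In the combination the groups overlapped (404 and 752 against 73.5 to 432), and without macrophage replicate 1 the adjusted p was 0.183.

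Mmp14, the membrane-anchored collagenase that activates pro-Mmp2 at the cell surface, followed Timp2 in direction. Its level was 299, 671, 718 and 413 in control macrophages and 141, 185, 165 and 103 in control neutrophils, groups that did not overlap. The log2 difference was +1.76 ± 0.42 (adjusted p = 0.00143). It was +1.76 ± 0.54 under anti-CSF-1R (0.0118), +1.72 ± 0.66 under cisplatin (0.0304) and +1.63 ± 0.54 in the combination (0.0174). Under cisplatin only 1 neutrophil value was kept, 83.4, so the other groups supplied the spread. The call was lost under anti-CSF-1R without macrophage replicate 1 or neutrophil replicate 2 (highest adjusted p 0.0788) and under cisplatin without macrophage replicate 2 (0.065). It was also lost in the combination without either macrophage replicate or neutrophil replicate 2 (0.12).

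Mmp13, an interstitial collagenase, was higher in control macrophages, at 1018 and 416 in the 2 restored libraries, than in control neutrophils at 81.5, 34.0, 200 and 77.8. The log2 difference was +2.99 ± 0.60 (adjusted p = 0.000428). With only values that allow a single place it was +1.70 and did not pass (0.234). It was +2.04 ± 0.69 under anti-CSF-1R (0.023) and +2.13 ± 0.63 in the combination (0.00985). Under cisplatin the macrophage level of 30.1 ± 5.33 (SD, n = 3) and the neutrophil level of 30.6 ± 21.1 (n = 2) overlapped. The interval of that log2 difference ran from -1.17 to 1.47 (95%, adjusted p = 0.859). Under anti-CSF-1R the call was lost with places restored without the groups (0.0775) and with single places (0.113). Leaving out macrophage replicate 1 in the combination gave an adjusted p of 0.0884, and leaving out macrophage or neutrophil replicate 1 under anti-CSF-1R gave up to 0.336.

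Mmp12, the macrophage elastase, had 109, 2163 and 639 in control macrophages and 179, 322 and 288 in control neutrophils. The macrophage values spread over a wider range than the neutrophil values and enclosed them, and the difference did not pass the test (adjusted p = 0.27). Without control macrophage replicate 2, the lowest, it did pass, at a log2 difference of +2.20 (0.0169). Mmp12 passed under anti-CSF-1R (1474 and 413 against 75.2 to 265, log2 difference +2.39 ± 0.84, adjusted p = 0.0265) and in the combination (428 and 497 against 44.5 to 211, +2.26 ± 0.84, 0.0323). Both calls were lost with limma-voom (0.108 and 0.158), with the most probable place for every value (0.127 and 0.139) and with single places (0.281 and 0.104), and both depended on single libraries. In the combination the call was lost without either macrophage replicate or without neutrophil replicate 2 or 3 (highest adjusted p 0.141), and under anti-CSF-1R without macrophage replicate 1 or neutrophil replicate 1 or 4 (0.304).

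Mmp19, a soluble MMP with broad substrate use, did not differ between the cell types beyond the spread of the libraries. Control values were 642, 1230 and 215 in macrophages and 984, 424 and 177 in neutrophils, and the groups overlapped. The interval of the log2 difference ran from -0.996 to 1.79 (adjusted p = 0.636), and Mmp19 did not pass in the other 3 treatments (adjusted p = 0.166 to 0.858). Under anti-CSF-1R it passed with quantile normalisation (log2 difference +1.87, adjusted p = 0.0376).

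In all, 5 of 7 genes differed between the cell types in controls, 5 of 6 under anti-CSF-1R, 4 of 7 under cisplatin and 6 of 7 in the combination. Over all genes tested the shares past the same threshold were 50.8%, 42.3%, 56.5% and 46.3%, so a call between cell types was common in this table. Macrophages were higher in 3, 4, 2 and 4 of the genes, where the shares over all genes were 26.2%, 21.2%, 29.1% and 22.6%. They were lower in 2, 1, 2 and 2, with shares of 24.6%, 21.1%, 27.3% and 23.7%. Without the 2 neutrophil libraries that stood apart, a setting chosen after seeing the data, the combination count was 4 of 7, with Mmp12 (adjusted p = 0.0766) and Mmp14 (0.117) no longer past the threshold.

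**Figure D3:**
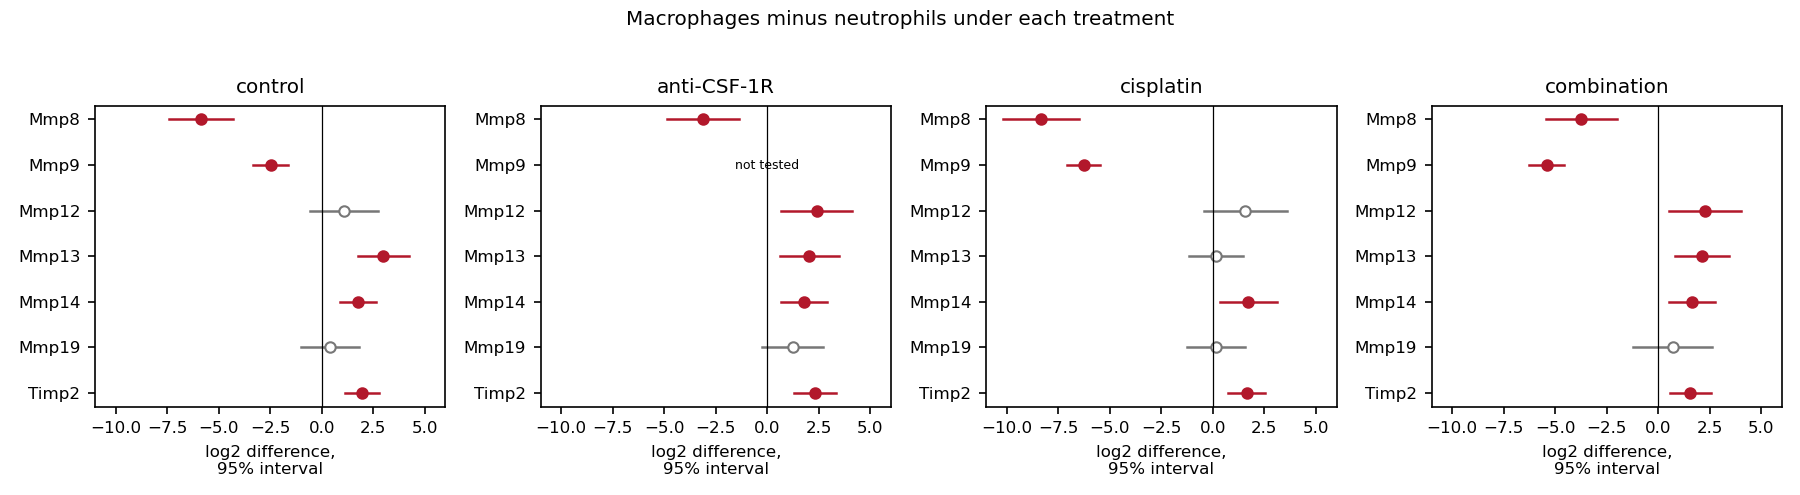
Log2 difference between macrophages and neutrophils (points) with 95% intervals (lines) for each gene under each treatment, from limma. Filled red points have an adjusted p under 0.05. Mmp8 and Mmp9 lie below 0 wherever they were tested, Timp2 and Mmp14 lie above 0 in all 4 panels, and Mmp13 lies near 0 under cisplatin.

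The comparison of cisplatin with control addressed the response of each cell type to chemotherapy. In macrophages 2 of the 7 genes fell, Mmp13 and Mmp9, and none rose. Over all genes tested 0.25% passed in either direction and 0.087% (8 of 9200) fell. Mmp13 was 28.1, 26.1 and 36.2 under cisplatin (replicates 1 to 3) against 1018 and 416 in control replicates 3 and 4. The restored groups did not overlap. Mmp13 fell by 4.40 on the log2 scale (SE 0.37, limma adjusted p = 0.000458). Leaving out any 1 of the 5 libraries with a restored Mmp13 value kept the call, with a highest adjusted p of 0.00425. The summed level of 6 monocyte markers moved with Mmp13, at 5992 to 13423 under cisplatin and 1560 to 5412 in control, with no overlap. Most of that sum was Fn1 (5507 to 12602 against 1145 to 4541), which macrophages also express and which is among the matrix substrates below. The sum of the other 5 was 485 to 953 against 302 to 870, which overlapped, and the lowest limma adjusted p among the 6 was 0.0998, for Fn1. The part of these markers in the Mmp13 difference was not tested.

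The 3 other Mmp13 values in this comparison had no certain place. Control replicate 1 was either 682 or 68.2, control replicate 2 either 795 or 79.5, and cisplatin replicate 4 was 540, 54.0 or 5.40. The cisplatin values used could also be read as 281, 261 and 362, which the model of the groups gave a probability of at most 0.0176. A model that did not use the groups gave the lower places of these cisplatin values only 0.755 to 0.82 and left out all 4 cisplatin libraries, so no test was possible with it. That model placed control replicate 2 at 79.5, with a probability of 0.955, and control replicate 1 at 68.2, with 0.936. With the most probable place for every value, which the model of the groups also set, the call remained. That setting and the fits without 1 library reuse places set with the groups, so they do not test those places.

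Mmp9 was 31.8, 13.6 and 16.7 under cisplatin against 157 and 313 in control, with no overlap among the restored values. It fell by 3.45 on the log2 scale (SE 0.41, adjusted p = 0.00828). Control replicate 1 (298 or 29.8), control replicate 4 (100 or 10.0) and cisplatin replicate 3 (839, 83.9 or 8.39) were left out, and at their lower places the control values would reach into the cisplatin range. The adjusted p was 0.699 with places restored without the groups, 0.0885 with the most probable place for every value and 0.137 with limma-voom on decoded reads. It was 0.0723 without control macrophage replicate 3, the library with the highest Mmp9. That control library also had the highest neutrophil marker sum of its group, 1540 against 237 to 441 in the other 3, with S100a8 at 304 and Cxcr2 at 104. The part of those markers in the Mmp9 difference was not tested. Mmp9 was 18.5% of the neutrophil mean in control macrophages and 1.25% under cisplatin, where the neutrophil marker sum stood at 1.81% and 0.598%.

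The other 5 genes did not pass in cisplatin macrophages (adjusted p = 0.41 to 0.889). Mmp14 was 270, 516, 248 and 172, overlapping the control values, with a log2 difference of -0.83 ± 0.32 and an adjusted p of 0.41. Timp2 was 1033, 490, 989 and 997 under cisplatin, and the interval of its log2 difference from control ran from -0.31 to 1.06. Mmp12 (456 and 182 restored) and Mmp19 (298, 735 and 250) overlapped their controls. Mmp8 was listed at 1 in replicates 1 and 4 and was 4.54, which is 4 reads, in replicate 2, at a probability of 0.953.

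In cisplatin neutrophils none of the 7 genes passed by limma, where 0.0439% of all genes did (4 of 9108). By limma-voom none passed either. By limma 2 had an unadjusted p under 0.05, Mmp8 and Mmp13, as did 659 of the 9108 genes. Mmp8 was 2138 and 384 in cisplatin replicates 2 and 3, with replicate 1 left out (190, 19.0 or 1.90), at a log2 difference from control of +1.96 ± 0.78 (adjusted p = 0.627). Replicate 2 stood apart, and without it the log2 difference was +0.72. Mmp13 was 45.5 and 15.7 against 34.0 to 200 in control, a log2 difference of -1.56 ± 0.67 (adjusted p = 0.643). Mmp9 was 1012, 2304 and 1656, with 2 of the 3 values above the highest control.

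The difference between the cell types in the response to cisplatin passed for Mmp9 only, of 7 genes and against 0.0506% of all genes (5 of 9882). The macrophage change minus the neutrophil change of Mmp9 was -3.79 ± 0.56 (adjusted p = 0.00741). It lost the call with the same settings as the macrophage comparison, at adjusted p values of 0.917, 0.269 and 0.334, and without control macrophage replicate 3 (0.0556). For Mmp13 the difference was -2.84 ± 0.87 (adjusted p = 0.508), so a response confined to macrophages was not shown. In the other 3 contrasts between cell types (anti-CSF-1R against control, combination against cisplatin, combination against anti-CSF-1R) none of these genes passed by limma or limma-voom, where 0.122%, 0.0614% and 0.0206% of all genes passed by limma. At an unadjusted limma p under 0.05 the counts were 1, 2 and 0, against 848 of 9813, 962 of 9779 and 560 of 9723 genes.

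The comparison of the combination with cisplatin addressed what anti-CSF-1R added in mice that shared the cisplatin schedule and time of collection. In macrophages Mmp13 and Mmp8 rose and none of the 7 fell, where 3.47% of all genes passed in either direction and 1.58% rose. Mmp13 was 138 and 95.2 in the combination against 26.1 to 36.2 under cisplatin. The restored groups did not overlap, and both combination values lay below the restored control values of 416 and 1018. Mmp13 rose by 1.91 ± 0.37 on the log2 scale (adjusted p = 0.0201). The call was lost without cisplatin replicate 1 (0.061), combination replicate 1 (0.18) or combination replicate 2 (0.104). The cisplatin values could also be read as 281, 261 and 362, above both combination values used. The model of the groups gave those places a probability of at most 0.0176. Without the groups or with single places no cisplatin value was kept, so no test was possible.

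Markers of other cell types moved in the same comparison. Among the monocyte markers Ly6c2 (159 and 637 against 2.27 to 11.8) and Plac8 rose, and Fn1 fell. The sum of the 6 markers was 3713 and 4199 against 5992 to 13423, and without Fn1 it was 846 and 2408 against 485 to 953, which overlapped. Of 3 eosinophil markers tested, Ear1 and Ear2 rose, and the sum of the 4 in the table was 29.9 and 215 against 5.66 to 8.94, with Ear2 at 1 in every cisplatin library. Of 2 endothelial markers Kdr rose, and their sum was 165 and 99.5 against 6.40 to 55.6. The part of these markers in the Mmp13 and Mmp8 differences was not tested.

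Mmp8 was 39.7 and 41.2 in the combination against 1, 4.54 and 1 under cisplatin, with cisplatin replicate 3 left out (387, 38.7 or 3.87). The value of 4.54 could also be read as 45.4 or 454, above both combination values used. The model of the groups gave 4.54 a probability of 0.953, just over the limit of 0.95. Without the groups that probability was 0.901, and the value was left out. The restored groups did not overlap. Mmp8 rose by 3.88 ± 0.83 on the log2 scale (adjusted p = 0.0263), a size that depends on the pseudocount because the cisplatin group rests on 4 reads. The call was lost without the filter on low values (0.0512) and without cisplatin replicate 1 (0.0771), cisplatin replicate 4 (0.0804), combination replicate 1 (0.165) or combination replicate 2 (0.192).

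Mmp8 in macrophage libraries moved with neutrophil marker genes. The summed level of the 10 markers was 1382 and 1560 in combination macrophages and 1076 and 1326 in anti-CSF-1R macrophages. It was 174 to 534 in cisplatin macrophages and 237 to 441 in control macrophages other than replicate 3. Control replicate 3, with a sum of 1540, was the only control library with a restored Mmp8 value above 1. The granule genes Camp and Ngp, which neutrophils transcribe while they mature, were at 1 to 6.36 in every macrophage library. Ltf was at most 2.25 apart from 19.3 in control replicate 3. At the most probable places, neutrophil libraries had Camp at 1 to 113, Ngp at 4.63 to 1876 and Ltf at 34.0 to 450. Camp was thus near the lowest value listed in some neutrophil libraries too. S100a8 was 207 to 349 in macrophages given anti-CSF-1R, alone or in the combination, and 19.9 to 71.5 under cisplatin. S100a9 was 351 to 602 and 12.5 to 94.3, whereas Cxcr2 overlapped, at 3.26 to 82.4 and 1.72 to 24.3. In the combination, Mmp8 in macrophages was 5.84% of its neutrophil mean and the marker sum 2.37%, with single markers from 0.577% to 10.0%. Under anti-CSF-1R the shares were 9.71% for Mmp8 and 2.92% for the sum, with single markers from 0.563% to 9.12%. The part of the markers in the Mmp8 difference was not tested.

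**Figure D4:**
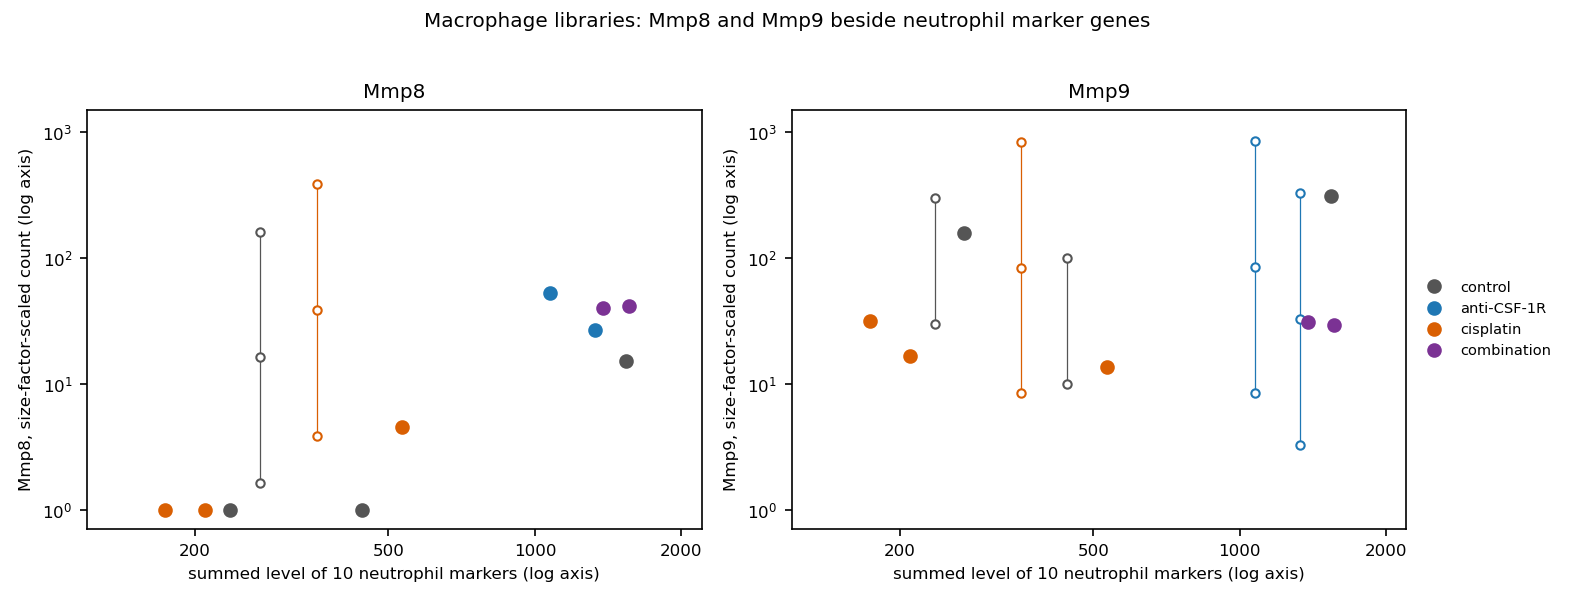
Mmp8 (left) and Mmp9 (right) in the 12 macrophage libraries against the summed level of 10 neutrophil markers in the same library (both log axes), coloured by treatment. Filled points are restored values and open points joined by a line are possible places of a value left out. The 5 libraries with a marker sum of 1076 or more have Mmp8 between 15.1 and 52.5, and the restored Mmp8 values of the others are at most 4.54.

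The other genes did not pass between combination and cisplatin macrophages (adjusted p = 0.423 to 0.89). Mmp9 was 31.1 and 29.1 in the combination, inside the cisplatin range of 13.6 to 31.8. Timp2 was 752 and 404, which overlapped the cisplatin values of 490 to 1033, with a 95% interval of the log2 difference from -1.45 to 0.23. Mmp19 had a single restored combination value, 469, so the other groups supplied the spread. In neutrophils none of the 7 passed in this comparison, where 0.0329% of all genes did (adjusted p = 0.838 to 1.0), and none had an unadjusted p under 0.05 or passed by limma-voom. The difference between cell types did not pass for Mmp8 (+4.60 ± 1.22, adjusted p = 0.133, and 0.0489 with quantile normalisation) or Mmp13 (+1.98 ± 0.89, 0.474).

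Anti-CSF-1R alone was compared with control antibody in mice that shared the tumour-size endpoint. None of the 6 genes tested in macrophages passed by limma, where 2.86% of all genes did, although 3 had an unadjusted p under 0.05, as did 1876 of all 9119 genes, and 1 passed by limma-voom. Mmp13 and Mmp8 were nearest to the threshold. Mmp13 was 250 and 170 under anti-CSF-1R, below both restored controls, at a log2 difference of -1.66 ± 0.41 and an adjusted p of 0.0544. Mmp8 was 52.5 and 26.9 against 1, 15.1 and 1 in control, at +3.27 ± 0.83 and 0.0561. Mmp13 passed with the most probable place for every value (0.023), with limma-voom (0.0385) and without control replicate 4 (0.0108) or anti-CSF-1R replicate 1 (0.0474). Mmp8 passed with the most probable place (0.0375), with a pseudocount of 5 (0.0344) and without control replicate 3 (0.00748). Markers of other cell types rose here too. By limma the monocyte markers Ly6c2 and Chil3 rose by 5.21 (adjusted p = 0.000461) and 3.87 (0.0122) on the log2 scale. The eosinophil markers Ear1 and Ear2 rose by 4.13 (0.00151) and 4.17 (0.00163). No other monocyte or eosinophil marker tested passed, and neither did the endothelial markers. Whether these markers bear on the Mmp13 and Mmp8 differences was not tested.

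Mmp19 in anti-CSF-1R macrophages was 1025 and 2934, at a log2 difference from control of +1.65 ± 0.68 that did not pass (adjusted p = 0.202). The higher value came from replicate 2, in which the mast cell marker sum was 9522 against 16.4 in replicate 1. The part of those markers in Mmp19 was not tested. Timp2 was 909 and 528 in this group, with a 95% interval of the log2 difference from -0.75 to 0.93, and Mmp14 was 458 and 383, inside the control range of 299 to 718. Mmp9 had no restored value (847, 84.7 or 8.47 in replicate 1, and 326, 32.6 or 3.26 in replicate 2). With the most probable place for every value it passed against control (log2 difference -4.14, adjusted p = 0.0101), on places that are not certain.

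In neutrophils given anti-CSF-1R none of the 7 passed against control (0.0439% of all genes did, adjusted p = 0.639 to 0.929 for the 7), and none had an unadjusted p under 0.05 or passed by limma-voom. Mmp9 was 811, 874, 590 and 984, and all 4 values lay below the 3 highest of the 4 controls. Timp2 was 104, 192, 120 and 148, with 2 of the 4 below the control range of 138 to 231. Between combination and anti-CSF-1R neutrophils no gene of 9118 passed by limma or limma-voom, and 834 had an unadjusted limma p under 0.05. Mmp9 was higher in all 4 combination libraries (991 to 2822 against 590 to 984), at a log2 difference of +0.73 ± 0.33 (adjusted p = 0.514). Mmp19 differed by -1.34 ± 0.53 (adjusted p = 0.441). In macrophages the same comparison gave 0 calls among the 6 genes tested and 0 among 9037 genes by limma and limma-voom. At an unadjusted limma p under 0.05 the counts were 0 and 796. These comparisons share samples with those above, so their values are not independent of them.

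**Figure D5:**
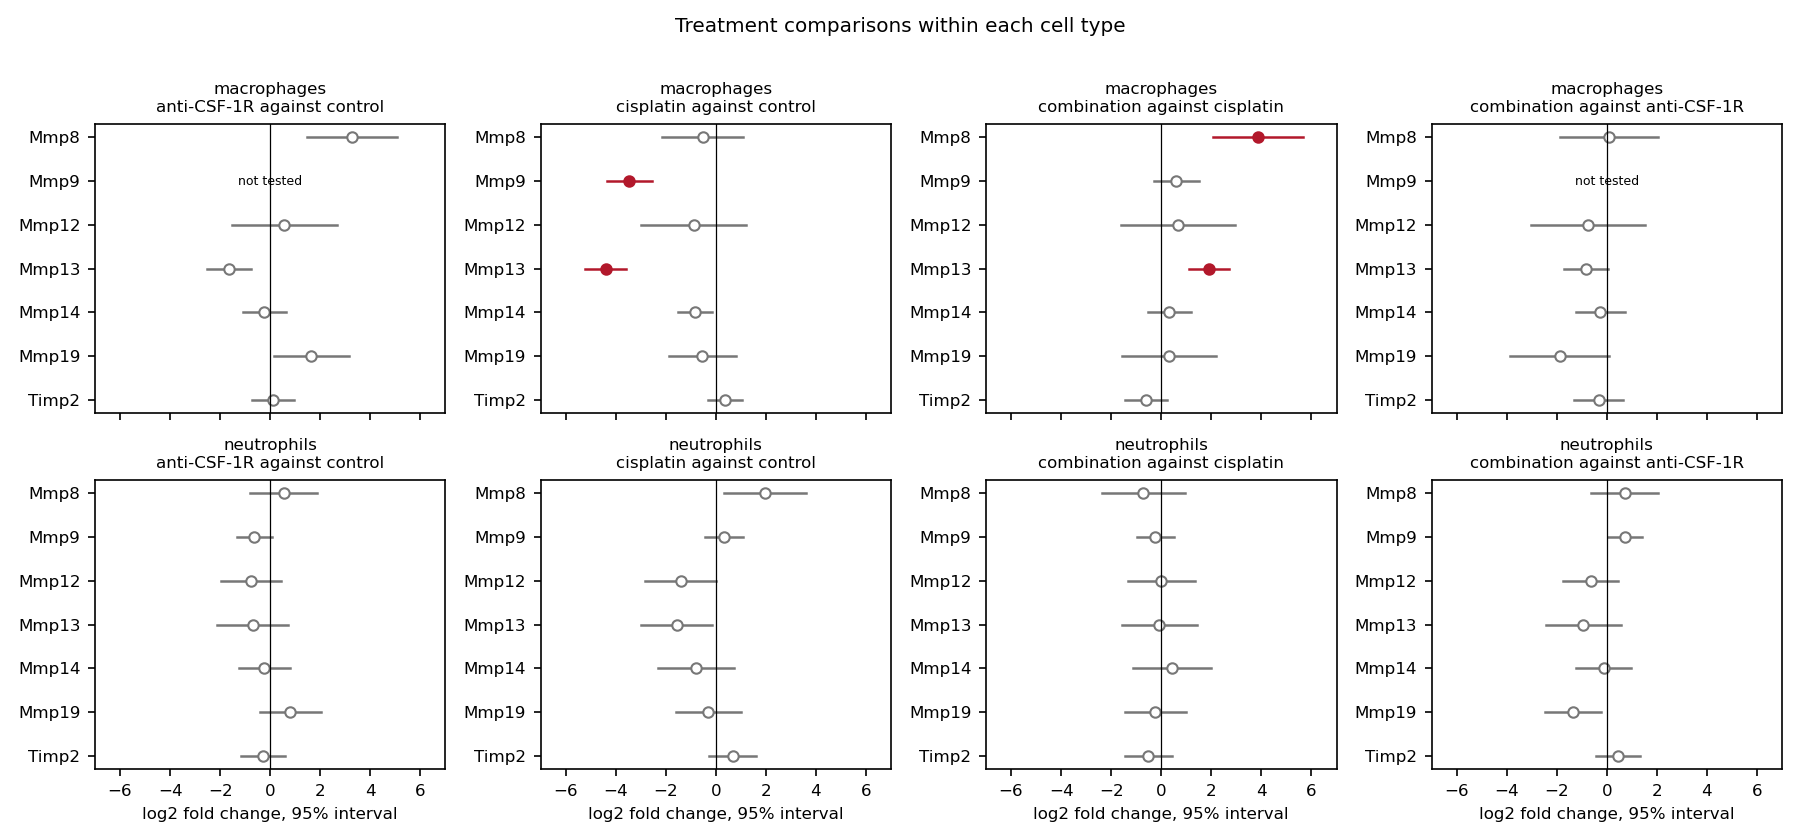
Log2 fold change (points) with 95% interval (lines) of each gene in the 4 treatment comparisons, macrophages above and neutrophils below, from limma. Filled red points have an adjusted p under 0.05. Red points are Mmp9 and Mmp13 under cisplatin against control and Mmp8 and Mmp13 in the combination against cisplatin, all in macrophages.

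Genes around these proteases were counted from lists of the family, its regulators, related proteases, matrix substrates and transcription factors. In macrophages, 2.86% of all genes passed under anti-CSF-1R against control and 0.25% under cisplatin against control. The share was 3.47% in the combination against cisplatin and 0% against anti-CSF-1R. It was at most 0.0439% in neutrophil comparisons and 42.3% to 56.5% between cell types. Of 20 other MMP and TIMP genes, 5 were in the table and 4 were tested, and none passed in a treatment comparison within a cell type. Mmp25, a membrane-anchored MMP of leukocytes, was lower in macrophages under all 4 treatments, at 10.8 ± 9.75 (n = 3) in control macrophages against 126 ± 36.6 (n = 4) in control neutrophils (log2 difference -3.73 ± 0.45, adjusted p = 4.88e-07). Timp1 was at most 74.7 in any macrophage library with a restored place. Mmp2, the gelatinase that Timp2 and Mmp14 activate together, was at most 51.1 in macrophages.

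Among 10 regulators in the table, Thbs1 (thrombospondin-1, which binds MMP2 and MMP9) rose in macrophages under anti-CSF-1R and in the combination. It was 3154 ± 2908 (n = 2) against 176 ± 54.4 in control (log2 +3.81 ± 0.48, adjusted p = 0.00138) and 1795 ± 296 in the combination against 393 ± 132 under cisplatin (+2.24 ± 0.48, 0.0228). No other regulator passed in a treatment comparison. Among 11 ADAM and ADAMTS proteases in the table, Adam15 fell in the combination against cisplatin macrophages, at 71.8 ± 1.99 (n = 2) against 271 ± 114 (n = 3; log2 -1.80 ± 0.38, adjusted p = 0.0217), and none rose.

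Of 15 matrix substrates in the table, 12 were tested in that comparison, and 1 rose and 1 fell. Of all genes, 3.47% passed there in either direction and 1.58% rose. Fn1 (fibronectin) fell from 10024 ± 3253 (n = 4) to 2329 ± 760 (n = 2; log2 -2.07 ± 0.50, adjusted p = 0.0367). Col3a1 (collagen III) rose, with 1 restored value in each group, 149 against 6.65 (+4.30 ± 0.83, 0.031), and its spread came from the other groups. The summed level of 7 fibroblast markers was 401 and 93.8 in the combination macrophages and 28.1 to 102 under cisplatin. The part of those markers in the Col3a1 difference was not tested.

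Of 16 transcription factors of the AP-1, NF-kB and ETS families in the table, Jun rose in the combination against cisplatin macrophages, at 516 ± 89.8 (n = 2) against 158 ± 23.0 (n = 4; log2 +1.70 ± 0.32, adjusted p = 0.0126). Etv1, an ETS factor, rose under cisplatin from 9.50 ± 5.12 (n = 4) to 175 ± 21.9 (n = 3; +4.19 ± 0.36, 0.000203) and was 4.56 ± 0.426 (n = 2) in the combination (-4.98 ± 0.43 against cisplatin, 0.000171). Etv5 fell under anti-CSF-1R (35.7 ± 0.958 against 107 ± 23.0, adjusted p = 0.009) and in the combination against cisplatin (0.0386). None of these factors passed in a neutrophil comparison.

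The genes with the most similar profiles were ranked by Pearson's r of log2 levels over the libraries restored for both genes, which include both cell types. Mmp8 was closest to Prdx6 (r = 0.973 over 24 libraries) and Mmp9 to Actn1 (0.961 over 21). Timp2 was closest to Nrp1 (0.917 over 24) and Adam9 (0.916 over 27), and Mmp14 to Plxnd1 (0.932 over 23). Mmp12 (Gm2a, 0.838 over 22), Mmp19 (Slc25a51, 0.822 over 23) and Mmp13 (Gsto1, 0.806 over 18) had no gene above 0.84. Within a cell type, r for Actn1 and Mmp9 was 0.839 over 6 macrophage libraries and 0.451 over 15 neutrophil libraries, for Nrp1 and Timp2 0.547 and 0.615 (12 each), and for Slc25a51 and Mmp19 0.798 (9) and 0.853 (14).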

How the data were processed

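RNA of sorted cells (10 ng) was amplified with the Ovation V2 system, built into libraries with Encore Rapid and sequenced on a HiSeq 1500, per the labels' protocols. Software listed in the submitters' processing notes, without roles, was TopHat2 2.0.11, DESeq2, R 3.3.1, Partek 6.6 and CASAVA 1.8, on the mm10 build. The authors deposited a signal table of read counts divided by size factors, in which 67.1% of 269892 values allow several decimal places. In it, values are whole multiples of 1 read per library. Places came from those steps and, for each gene, a negative binomial model that used the groups, and 4.76% of values with a probability under 0.95 were left out. Depth is the sum of decoded reads.

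Tests used limma 3.58.1 (R 4.3.3) on log2(value + 1), two-sided, with Benjamini-Hochberg adjustment over all genes that reached 10 in 2 or more libraries, and a threshold of 0.05. The 4 groups of a cell type shared 1 fit, and all 8 groups shared 1 for contrasts across cell types. Both steps were tested on simulated data. There, 0.0927% of the kept places were wrong for macrophages and 0.135% for neutrophils. The share left out in that run was 3.74% for macrophages and 5.17% for neutrophils, whereas 28 of the 189 measured values of the 7 genes were left out. The share of wrong places among the 7 genes alone was not tested. For anti-CSF-1R against control in macrophages, limma recovered 13 of 100 genes changed 2-fold and 56 of 100 changed 4-fold. In neutrophils it recovered 24 of 100 and 61 of 100. Most 2-fold changes were thus missed in these 2 comparisons, so a gene that did not pass can still differ. The 7 genes and all lists were chosen with earlier results of these data known. All 7 genes are named, and from each list up to 3 genes with the smallest adjusted p past the threshold. Alternatives were places without groups, the most probable place for every value, single places, a pseudocount of 5, no filter, quantile normalisation, 2-group fits, limma-voom and leaving out each library, and, chosen after seeing the data, leaving out 2 neutrophil libraries that stood apart. Replicate numbers follow the order of the records and only name libraries. Raw reads were not used here. The result of 1 marker gene is not reported here. Gene positions and exon lengths are from GENCODE vM21.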

Additional observations from a re-analysis of the deposited data

Results flagged for a closer look

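In 19 groups of 4 libraries with restored values, a library far from the others was looked for, and chance flags about 1 group in 20. Mmp8 and Mmp9 each had 1 such library in combination neutrophils, replicate 2 in both cases, at 1607 and 2822 against at most 415 and 1074 in the other 3. That library also stood apart on the first principal component and had the highest neutrophil marker sum of all libraries, 102209. Timp2 in cisplatin macrophages had a low library, replicate 2 at 490 against 989 to 1033 in the other 3, which also had the fewest decoded reads of the macrophages (1298440). The response of Mmp9 to cisplatin differed between macrophages and neutrophils by -3.79 on the log2 scale. That call was lost with places restored without the groups, with the most probable places and with limma-voom. It was also lost without control macrophage replicate 3.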

How the results depend on the processing

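No paired analysis was possible because the labels number no replicates and name no mouse that ties libraries together. Counts of the 7 genes past the threshold moved by over 1.5 times in these cases. In anti-CSF-1R macrophages against control the count of 0 became 3 with the most probable place, 1 with a pseudocount of 5 and 1 with limma-voom, and ranged from 0 to 1 when 1 library was left out. In cisplatin macrophages against control the count of 2 became 0 without the groups, 1 with the most probable place, 0 with single places and 1 with limma-voom (1 to 2 on leaving out a library). In combination macrophages against cisplatin the count of 2 became 1 without the groups, 0 with single places and 1 without the filter (0 to 2). Between cell types, single places gave 1 of 5 under anti-CSF-1R (2 to 5 on leaving out a library), 2 of 4 under cisplatin and 0 of 6 in the combination (2 to 6). The cisplatin difference between cell types went from 1 to 0 without the groups, with the most probable place, with single places and with limma-voom (0 to 1), and the combination difference against cisplatin went from 0 to 1 with quantile normalisation. Single places leave fewer values. Places restored without the groups left no Mmp13 value in cisplatin macrophages, so Mmp13 could not be tested there. The cause of the other moves was not tested. For log2 fold changes of the 7 genes with an unadjusted p under 0.05 by limma, 534 alternative values kept direction and side of the threshold, 8 gained a call, 48 lost one and none changed sign. Outside that set Mmp12 in controls and Mmp19 under anti-CSF-1R each gained 1 call between cell types, and Mmp9 in anti-CSF-1R macrophages, not tested by limma, gained 3 on the most probable places. Counts over all genes moved more. They were 261, 23 and 316 in macrophages (anti-CSF-1R against control, cisplatin against control, combination against cisplatin) and ranged over 19 to 246, 2 to 30 and 76 to 503 under other settings and 23 (without anti-CSF-1R replicate 2) to 525 (control replicate 4), 8 (cisplatin replicate 4) to 114 (cisplatin replicate 2) and 9 (combination replicate 2) to 534 (cisplatin replicate 2) without 1 library. Between cell types, single places gave 1550 of 5032, 1232 of 4156, 1682 of 5581 and 1338 of 4540 genes (control, anti-CSF-1R, cisplatin, combination), and the last was 2922 without combination macrophage replicate 1. The neutrophil counts of 4, 4 and 3 ranged from 0 to 8, those of 12, 5, 6 and 2 for differences between cell types from 0 to 47, and the count of 0 for combination against anti-CSF-1R reached 20 in macrophages and 1 in neutrophils. Depth limits Mmp8 in macrophages, where 4 of the 12 libraries were taken as 0 reads, and values without a certain place limit Mmp9 and Mmp13.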
